A study of Danio rerio with 12 samples.

Results

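The comparison set the microRNAs of sorted endothelial cells of zebrafish (Endo) against those of the other cells (NoEndo) at 72 hours post fertilization (hpf). It rests on 2 of the study's 12 small RNA libraries, chosen by title: the 72 hpf library of each population whose title ends in E2. The study sampled both populations from transgenic fish at 24, 48 and 72 hpf and 6 days post fertilization (dpf). After dissociation with Liberase and FACS for GFP, RNA of the sorted cells was taken up in Trizol and sequenced from Illumina TruSeq libraries. No treatment or second genotype is labelled, and all groups come from transgenic fish. The labels do not name the transgene, the promoter that drives GFP, the number of pooled animals, or the cells that the NoEndo sort held. They also give endothelial tissue and a GFP stain for the NoEndo libraries, so the 2 populations are told apart by title alone.

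The other 72 hpf library of each population was left out, because its files held identical values under the Endo and the NoEndo title. With 1 library per population there is no replicate and no test between samples, and a difference between the libraries cannot be told apart from one between the populations. Levels are counts scaled to a library total of 1000000 microRNA counts (CPM). Each ratio (Endo over NoEndo) carries an exact 95% interval that covers counting error only. A microRNA is called past 4-fold when it averaged at least 10 CPM over both libraries and its ratio was 4 or more, or 1 over 4 or less.

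MicroRNAs are short RNAs, cut from hairpin precursors, that lower the output of the messenger RNAs they pair with. Many are made in 1 or a few cell types, which lets a cell type be read from its microRNAs. Endothelial cells line blood and lymph vessels, and miR-126, which in mammals lies within the endothelial gene EGFL7, is their best known microRNA and is needed for vessel integrity in zebrafish and mouse.

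The Endo library held 996643 reads on mature microRNAs and the NoEndo library 5028382. These were 18.8% of a larger, undefined read total in Endo and 40.8% in NoEndo. In Endo 289 microRNAs were listed and in NoEndo 322 were, and 310 would be expected in NoEndo at the Endo depth. Of the 324 listed in either library, 250 passed the minimum mean and 74 did not. A count of 0 allows up to 3.01 CPM in Endo against 0.602 CPM in NoEndo.

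MicroRNAs known from single cell types were among those with the largest ratios in either direction. CPM is relative to the library, so fewer cells of a type and less RNA per cell cannot be told apart. Of the 250 microRNAs, 13 (5.2%) were at least 4-fold higher in Endo and 65 (26%) at least 4-fold lower. The 13 higher ones held 10.8% of the Endo counts and 0.243% of the NoEndo counts, with miR-150 and the miR-126 arms in the lead. The 65 lower ones held 2.20% of the Endo counts and 34.7% of the NoEndo counts, led by the epithelial miR-205 and miR-203. The whole 95% interval lay past 4-fold for 12 of the 13 and for 48 of the 65. The minimum can be met through 1 library alone: among the 222 microRNAs at 10 CPM or more in both libraries, 11 were at least 4-fold higher and 47 at least 4-fold lower. For a microRNA under 10 CPM in 1 library, the minimum itself fixes the side of 1 on which its ratio lies.

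The ratios were not centred on 1. Their median was -0.58 on the log2 scale, with quartiles of -2.11 and 0.27, and 85 ratios lay above 1 and 165 below. TMM scaling moved the median by 0.52 to -0.06 and gave 17 higher and 46 lower microRNAs, and DESeq2 size factors gave 18 higher and 44 lower. These scalings and the larger read total each move all log2 ratios by 1 amount: 0.52 (TMM), 0.61 (DESeq2) and -1.11 (larger read total). No call past 4-fold could therefore cross a ratio of 1 under them. TMM scaling left 13 of the 13 higher and 46 of the 65 lower calls past 4-fold. The larger read total left 9 of the 13 and 65 of the 65. With the file shared by both titles in place of the Endo library, 13 were higher and 98 lower, and with it in place of the NoEndo library 29 were higher and 4 lower. In the last case 3 of the 40 lower microRNAs with a value were still below 1. The labels do not settle which population that file came from. It held 13546 CPM of miR-126a-3p, against 29924 CPM in Endo and 502 CPM in NoEndo. Of miR-205-5p it held 5807 CPM, against 12250 CPM in Endo and 185676 CPM in NoEndo. Of let-7a it held 3498 CPM, against 17970 CPM in Endo and 7685 CPM in NoEndo. Replicates of 1 population at 48 hpf give a measure of the spread between libraries: 28 of 244 microRNAs (11.5%) lay past 4-fold between the Endo replicates and 35 of 271 (12.9%) between the NoEndo replicates, against 31.2% between Endo and NoEndo at 72 hpf. The median size of the log2 ratio was 1.13 between the populations at 72 hpf, 0.73 between the Endo replicates and 0.68 between the NoEndo replicates at 48 hpf.

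**Figure D1:**
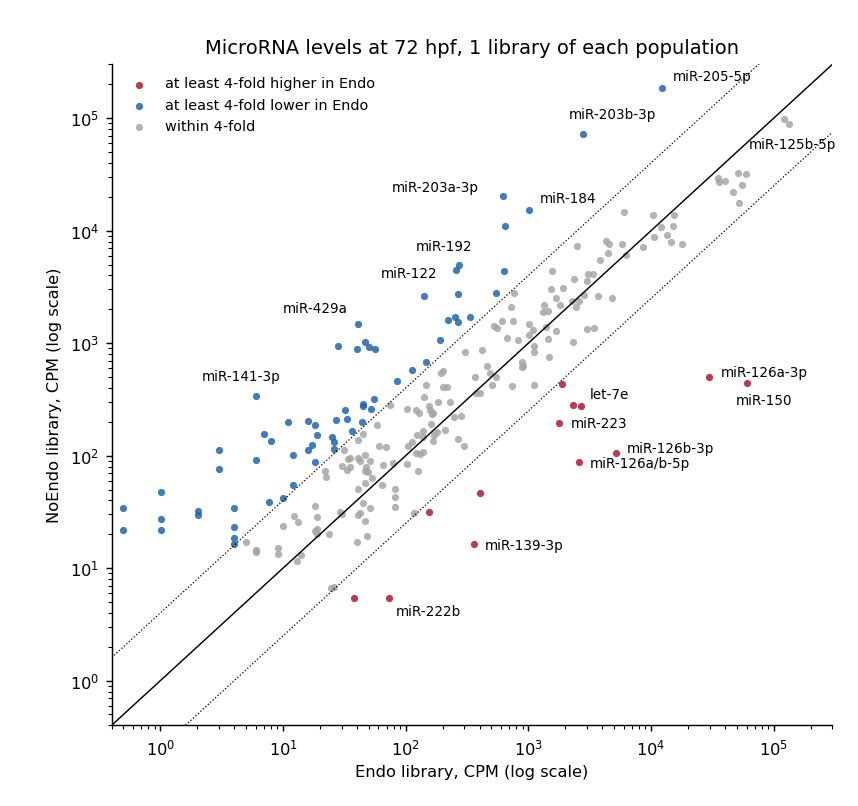
CPM of each of the 250 microRNAs in the Endo library (horizontal axis) and the NoEndo library (vertical axis) at 72 hpf, both on log scales, 1 point per microRNA. The 2 microRNAs with a count of 0 in Endo are drawn at 0.5 CPM. The 13 microRNAs past 4-fold higher in Endo lie below the diagonal, with miR-150 at 60352 CPM in Endo against 439 CPM in NoEndo, and the 65 past 4-fold lower lie above it.

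A few microRNAs made up most of each library, and many were abundant in both. Of all, 7 microRNAs held 50% of the Endo counts and 6 held 50% of the NoEndo counts. The most abundant in Endo was miR-125b-5p, with 13.2% of the Endo counts and 8.88% of the NoEndo counts. The next was miR-92a-3p of the miR-17-92 family, with 12.1% in Endo and 9.77% in NoEndo. The first microRNA of the Endo order that was scarce in NoEndo was miR-150, the third in Endo with 6.04% and at 0.0439% in NoEndo. The most abundant in NoEndo was miR-205-5p, with 1.22% in Endo and 18.6% in NoEndo. The 12 most abundant in Endo also held miR-222a-3p (6.00% in Endo, 3.16% in NoEndo), miR-125a (5.55% in Endo, 2.55% in NoEndo), miR-23b (5.24% in Endo, 1.78% in NoEndo) and miR-126a-3p (2.99% in Endo, 0.0502% in NoEndo). Across the 250 microRNAs the levels in the 2 libraries had a Spearman correlation of 0.828, given as a description across microRNAs that share 2 libraries.

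The miR-126 arms checked the titles of the 2 libraries and went with them. The 3' arm miR-126a-3p stood at 29924 CPM in Endo against 502 CPM in NoEndo, 59.7-fold higher in Endo (95% interval 57.3 to 62.2). The sister arm miR-126b-3p stood at 5194 CPM in Endo against 106 CPM in NoEndo, 49.0-fold higher. The 5' arms of both hairpins share 1 entry, at 2597 CPM in Endo against 87.4 CPM in NoEndo, 29.7-fold higher. Every miR-126 entry was thus among the 5 highest ratios of the named set, and together they held 3.77% of the Endo counts and 0.0695% of the NoEndo counts. Here, the share of a list sums all its listed members. In Zv9, the build of the files, miR-126a-3p lies on the minus strand at chr8:12065968-12065988 and miR-126b-3p on the plus strand at chr11:38496011-38496032. In the RefSeq gene table of the assembly GRCz12tu the mir126b hairpin lies within egfl7. No protein-coding gene of that table spanned the mir126a hairpin.

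The largest ratio of all belonged to miR-150, which in mouse acts in lymphocytes and represses the transcription factor Myb. It counted 60091 reads in Endo and 2189 in NoEndo, or 60352 CPM in Endo against 439 CPM in NoEndo, a ratio of 137 (95% interval 132 to 144). It was listed here among leukocyte microRNAs, and the other members of that list did not share its ratio. The neutrophil and macrophage microRNA miR-223 stood at 1792 CPM in Endo against 197 CPM in NoEndo, 9.11-fold higher. The leukocyte-wide miR-142a-3p reached 24.5 CPM in Endo against 6.62 CPM in NoEndo, and miR-155, of activated immune cells, 46.2 CPM in Endo against 26.3 CPM in NoEndo. Both miR-146 members, which dampen inflammatory signalling, were lower in Endo: miR-146a at 46.2 CPM in Endo against 72.8 CPM in NoEndo, and miR-146b at 47.2 CPM in Endo, 78.6 CPM in NoEndo. So 2 of the 6 leukocyte members were past 4-fold higher and 4 of 6 above a ratio of 1, against 13 and 85 of all 250. The list had a median log2 ratio of 1.35, against -0.58 over all 250. The summed level of the list was 62308 CPM in Endo against 820 CPM in NoEndo. The part of blood cells in the miR-150 and miR-223 ratios was not tested. The erythroid miR-451 stood at 199.9 CPM in Endo against 408 CPM in NoEndo, 2.04-fold lower in Endo, and its partner miR-144 had at most 12 counts per arm in either library. Of the erythroid list 1 of 3 listed members passed the minimum, and its summed level was 202 CPM in Endo against 413 CPM in NoEndo.

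Other microRNAs studied in vessels were mostly moderately higher in Endo, and some of their arms were abundant in both libraries. The list of the miR-221, miR-222, miR-23, miR-24, miR-27 and miR-139 families held 20.5% of the Endo counts and 10.3% of the NoEndo counts. Of its 18 members past the minimum, 16 lay above a ratio of 1, 3 were past 4-fold higher and 1 past 4-fold lower. Over all 250 these counts were 85, 13 and 65. The median of the list was 0.94 on the log2 scale. This median turned to -0.17 under the larger read total.

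Within the list, miR-139-3p had the largest ratio, followed by miR-222b and miR-139-5p. The 5' arm miR-139-5p stood at 2328 CPM in Endo against 284 CPM in NoEndo (8.19-fold higher, 95% interval 7.67 to 8.76), and miR-139-3p at 360.1 CPM in Endo against 16.3 CPM in NoEndo (22.03-fold higher). Both miR-221 and miR-222 were among the most abundant microRNAs of either library; miR-221 is needed for vessel sprouting in zebrafish. The arm miR-222a-3p was 1.90-fold higher and miR-221-3p 1.32-fold higher, while miR-222b reached 72.8 CPM in Endo against 5.41 CPM in NoEndo (13.4-fold higher). Both miR-23b, at 52380 CPM in Endo against 17786 CPM in NoEndo, and miR-23a-3p, at 46988 CPM in Endo, 22197 CPM in NoEndo, were higher, by 2.95-fold and 2.12-fold. The member past 4-fold lower was miR-27e, at 44.4 CPM in Endo against 200 CPM in NoEndo. It lies on chromosome 22 in Zv9 near a copy each of miR-23a-3p and miR-24, whose ratios were above 1; reads of these families that fit several copies were divided between them.

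The remaining microRNAs past 4-fold higher were from several families. The member let-7e of the let-7 family, which acts late in development, stood at 2663 CPM in Endo against 276 CPM in NoEndo, 9.65-fold higher. The level of miR-338, whose hairpin mir338-3 lies within aatka in GRCz12tu, was 400 CPM in Endo against 46.1 CPM in NoEndo. Lower in abundance were miR-187, at 154 CPM in Endo against 31.5 CPM in NoEndo, and miR-7147, at 38.2 CPM in Endo, 5.41 CPM in NoEndo. The minor arm miR-30c-3p stood at 1863 CPM in Endo against 436 CPM in NoEndo, 4.27-fold higher, with an interval of 4.01 to 4.54. The highest ratios short of 4-fold, at a mean of at least 100 CPM, were those of miR-23b (2.95) and let-7c-5p (2.64).

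**Figure D2:**
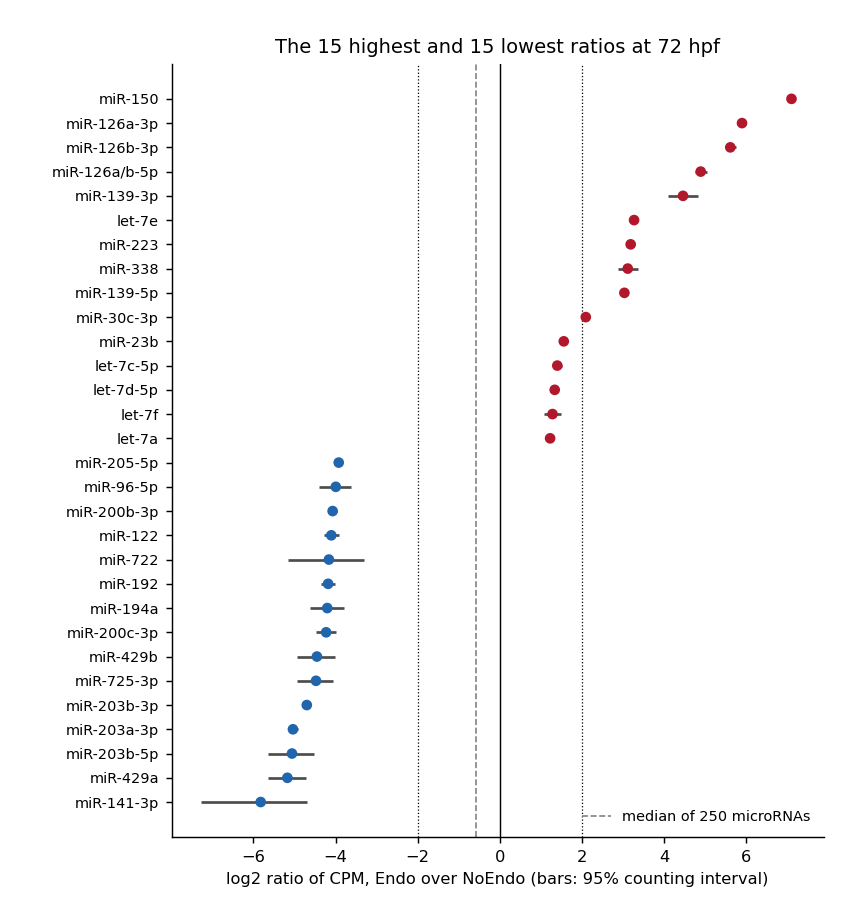
Log2 ratio of CPM, Endo over NoEndo, at 72 hpf for the 15 largest and the 15 smallest ratios among microRNAs with a mean of at least 100 CPM; bars are 95% counting intervals and the dashed line is the median of all 250 microRNAs. The points run from miR-141-3p at -5.82, with the widest bar, to miR-150 at 7.10.

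The let-7 and miR-125 families were higher in Endo together. Of 9 let-7 members, 7 lay above a ratio of 1, where 85 of all 250 did. Their median log2 ratio was 1.23, and the summed share of the list was 2.67% in Endo and 1.12% in NoEndo. The most abundant, let-7a, stood at 17970 CPM in Endo against 7685 CPM in NoEndo, 2.34-fold higher. The exceptions were let-7g, at 1004 CPM in Endo against 1191 CPM in NoEndo, and let-7j, at 13.3 CPM in Endo, 25.9 CPM in NoEndo. Members of this family differ by few bases, so reads may be divided wrongly between them. All 6 miR-125 members lay above 1, against the same 85 of all 250. Their median was 0.61, and the summed share of the list was 23.9% in Endo and 14.7% in NoEndo. The miR-125 median turned to -0.50 under the larger read total. With the file shared by both titles in place of the Endo library, the let-7 median was -1.14. The member miR-125a was 2.18-fold higher, miR-125c-5p 1.57-fold and miR-125b-5p 1.49-fold.

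Every epithelial microRNA past the minimum was lower in Endo. These microRNAs act in skin and other epithelia: miR-203 restrains the stem cell factor p63 in mouse skin, and miR-200 and its relatives keep the epithelial state by repressing ZEB factors in mammalian cells. All 12 members past the minimum (miR-200, miR-429, miR-141, miR-203 and miR-205) were past 4-fold lower, against 26% of all 250. Their median log2 ratio was -4.34, and the 16 listed members, 4 of them under the minimum, held 1.66% of the Endo counts and 29.6% of the NoEndo counts. No scaling tried could turn these directions, because the largest upward shift was 0.61 on the log2 scale. All 12 stayed past 4-fold lower under TMM scaling and DESeq2 size factors. With the file shared by both titles in place of the NoEndo library, all 9 members past the minimum lay above 1, with a median of 1.08. That file held 5807 CPM of miR-205-5p, less than the Endo library (12250 CPM) and the NoEndo library (185676 CPM).

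Most of the epithelial counts came from a few arms. The level of miR-205-5p was 12250 CPM in Endo against 185676 CPM in NoEndo, 15.2-fold lower (95% interval 14.9 to 15.4), and it was still the 18th most abundant microRNA in Endo. The arm miR-203b-3p stood at 2788 CPM in Endo against 72441 CPM in NoEndo, 26.0-fold lower, and miR-203a-3p at 624 CPM in Endo, 20476 CPM in NoEndo, 32.8-fold lower. The arm miR-200b-3p stood at 648 CPM in Endo against 10892 CPM in NoEndo, 16.8-fold lower. The smallest ratio of the named set was that of miR-141-3p, with 6 counts in Endo and 1700 in NoEndo, 56.6-fold lower with an interval of 25.9 to 154. The miR-200, miR-141 and miR-429 members lie in Zv9 in groups along the genome and were lower as groups. On the minus strand at chr6:40584015-40587102, miR-429b, miR-141-3p and miR-200c-3p had log2 ratios between -5.82 and -4.23. On the plus strand at chr23:24358924-24360769, the arms of miR-200b, miR-200a-3p and miR-429a lay between -5.17 and -2.79. In GRCz12tu the first group matched hairpins within ppil1 and the second within ttll10.

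**Figure D3:**
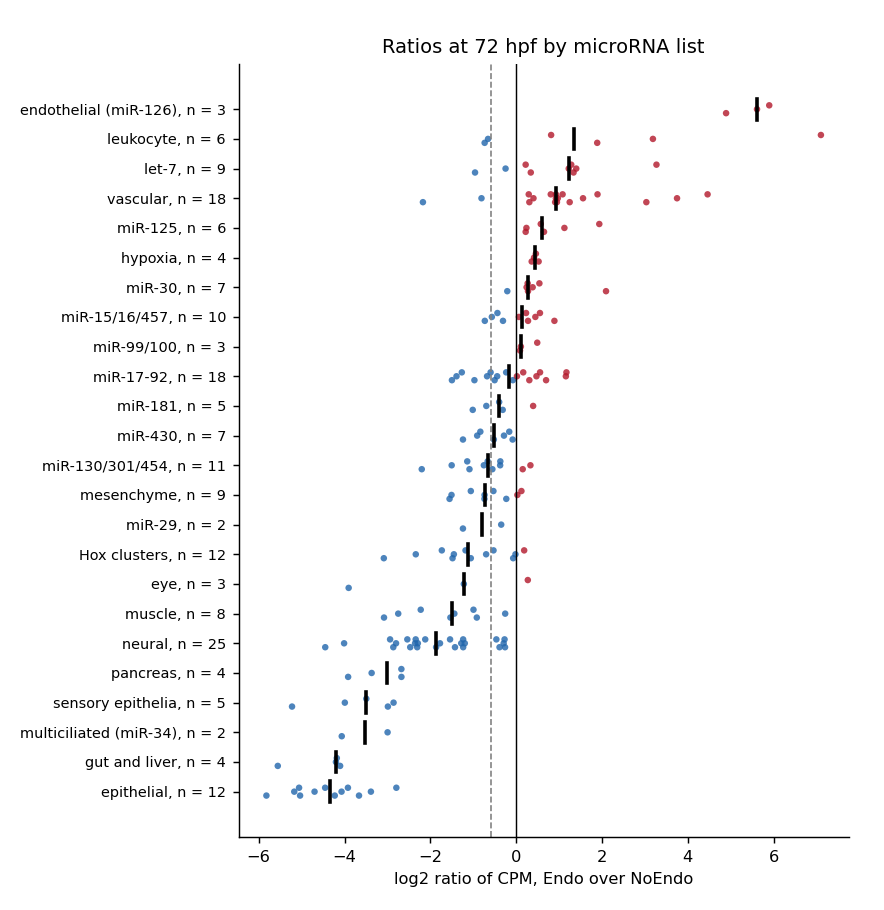
Log2 ratio of CPM, Endo over NoEndo, at 72 hpf for every member past the minimum, by list for lists with 2 or more such members (1 point per microRNA, a bar at the median of the list, a dashed line at the median of all 250). The epithelial members lie between -5.82 and -2.79, and the miR-126 entries between 4.89 and 5.90.

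MicroRNAs of other specialised tissues were also lower in Endo. All 4 gut and liver members were past 4-fold lower, against 26% of all 250, with a median log2 ratio of -4.19. The liver microRNA miR-122 stood at 258 CPM in Endo against 4438 CPM in NoEndo, 17.2-fold lower. The intestinal pair miR-192 and miR-194a, which lie 202 bases from end to end on chromosome 10 in Zv9, had nearly the same ratio: miR-192 was 18.1-fold lower (270.2 CPM in Endo, 4900.4 CPM in NoEndo) and miR-194a 18.4-fold lower (50.2 CPM in Endo, 924 CPM in NoEndo). All 4 pancreatic members were past 4-fold lower too, among them miR-375 of islet cells, at 265 CPM in Endo against 2739 CPM in NoEndo, and miR-217 of acinar cells, at 45.2 CPM in Endo, 289 CPM in NoEndo.

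In the miR-183 group of hair cells and photoreceptors, all 5 arms past the minimum were past 4-fold lower, against 26% of all 250. The arm miR-96-5p stood at 56.2 CPM in Endo against 896 CPM in NoEndo, 15.9-fold lower, and miR-183-3p at 221 CPM in Endo, 1602 CPM in NoEndo. Counts of the other arms were few in Endo: miR-183-5p had 3 counts in Endo and 562 in NoEndo. The arm miR-182-5p had 0 in Endo and 169 in NoEndo, at least 11.3-fold lower against the floor of 3 counts in the Endo library. Both miR-183-5p and miR-182-5p passed the minimum through NoEndo alone, which fixed their direction. The ciliated-cell microRNA miR-34c was lower by 16.7-fold in its 5' arm, with 8 counts in Endo and 671 in NoEndo.

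The neural and muscle lists had median ratios nearer to 1 than the epithelial list. All 25 neural members past the minimum lay below a ratio of 1, where 165 of all 250 did. Past 4-fold lower were 12 of the 25, against 26% of all 250, and the list median was -1.87. TMM scaling put 5 of the 25 above 1 and left 6 past 4-fold lower, where 46 of all 250 were. The larger read total gave 20 of the 25 past 4-fold lower, where 111 of all 250 were. The summed share of the neural list was 1.23% in Endo and 2.87% in NoEndo. Among the arms of miR-9, which acts in neural progenitors, miR-9-3p stood at 630 CPM in Endo against 4391 CPM in NoEndo (6.97-fold lower) and miR-9-5p at 2513 CPM in Endo, 7312 CPM in NoEndo (2.91-fold lower). The neuronal miR-124-3p was low in both libraries, at 7.62 CPM in Endo against 38.6 CPM in NoEndo, and miR-137-3p stood at 55.2 CPM in Endo, 321 CPM in NoEndo. The most abundant neural member, miR-128-3p, was 1.31-fold lower, at 5810 CPM in Endo against 7603 CPM in NoEndo. All 8 muscle members lay below 1, with a median of -1.49. Past 4-fold lower were 3 of the 8, a share near the 26% of all 250, and 2 under TMM scaling and 7 under the larger read total. The cardiac and slow-muscle microRNA miR-499-5p was 6.72-fold lower (253 CPM in Endo, 1702 CPM in NoEndo), whereas miR-206-3p was 1.19-fold lower (3013 CPM in Endo, 3598 CPM in NoEndo); the ratio of miR-206-3p was above 1 under TMM scaling.

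MicroRNAs of mesenchyme and the eye were divided. Of the 9 mesenchymal members, 7 lay below a ratio of 1, where 165 of all 250 did. None was past 4-fold in either direction, against 31.2% of all 250. The list median was -0.74 on the log2 scale, close to that of all 250, and -0.21 under TMM scaling. The smooth-muscle microRNA miR-145-5p stood at 2587 CPM in Endo against 2377 CPM in NoEndo, while its neighbour miR-143 stood at 199.9 CPM in Endo against 568 CPM in NoEndo. The arm miR-199-5p was 1.67-fold lower, and miR-214, which lies beside a copy of it, had a ratio of 1.02. Of the eye list, miR-184 of cornea and lens was 14.98-fold lower, at 1016 CPM in Endo against 15224 CPM in NoEndo, whereas miR-204-5p of the pigment epithelium was among the 12 most abundant in Endo, at 35102 CPM in Endo against 29086 CPM in NoEndo (1.21-fold higher).

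**Figure D4:**
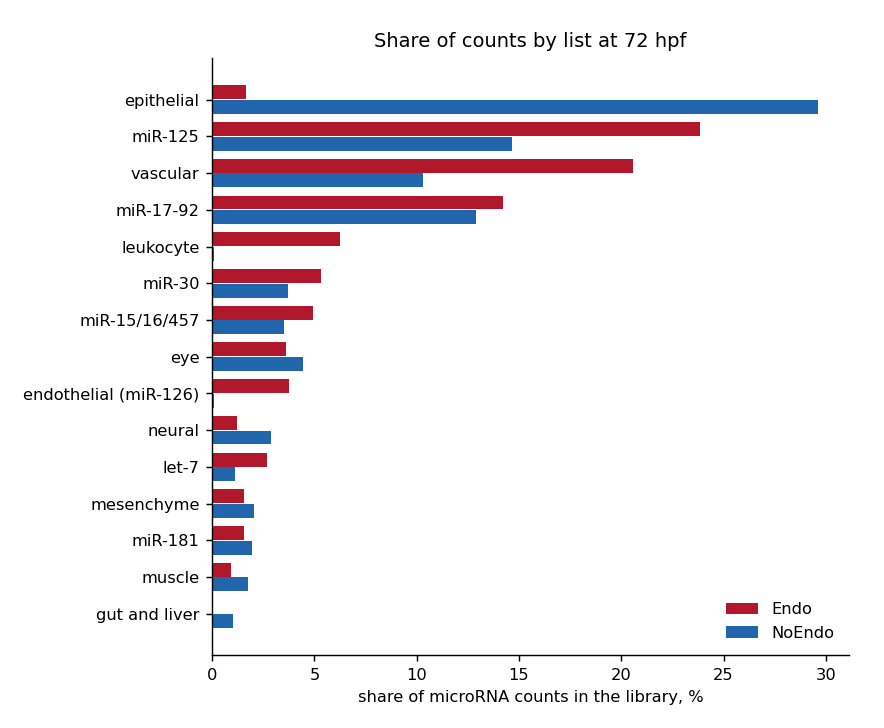
Share of each library's microRNA counts held by the larger lists at 72 hpf, with Endo above NoEndo for each list and bars from 0. Drawn are the lists whose larger share was at least that of the gut and liver list (1.03% of the NoEndo counts). The epithelial list held 1.66% of the Endo counts and 29.6% of the NoEndo counts, and the leukocyte list, most of it miR-150, 6.23% of the Endo counts and 0.0820% of the NoEndo counts.

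Broadly expressed families had few members past 4-fold. The 18 members of the miR-17-92 family had a median of -0.16, none past 4-fold, and their summed share was 14.2% in Endo and 12.9% in NoEndo; the median turned to 0.37 under TMM scaling. Their range ran from miR-19a-3p at -1.50 to miR-20b-5p at 1.17. Of the 12 members of the Hox cluster families miR-10 and miR-196, 11 lay below 1, where 165 of all 250 did, with a median of -1.12. Past 4-fold lower were 2 of the 12, a smaller share than the 26% of all 250. Under TMM scaling 3 lay above 1 and 1 was past 4-fold lower. Of those past 4-fold, miR-10b-5p stood at 113 CPM in Endo against 572 CPM in NoEndo, and miR-196a-3p at 12.1 CPM in Endo, 102 CPM in NoEndo. The miR-430 family, which clears maternal messenger RNAs in the early zebrafish embryo, remained measurable: miR-430b-3p stood at 4442 CPM in Endo against 6372 CPM in NoEndo. All 7 miR-430 members past the minimum lay below 1 with a median of -0.52, close to that of all 250, which TMM scaling moved to 0.00. The 4 members of the hypoxia list (miR-210, miR-462 and miR-731) had ratios above 1, where 85 of all 250 did. Their median was 0.44, and -0.67 under the larger read total.

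Other lists of broad families had medians on either side of 0. Of all 250 microRNAs, 85 lay above a ratio of 1. The miR-30 list had a median of 0.28 with 6 of 7 members above 1, the miR-15 and miR-16 list 0.15 with 6 of 10, and the miR-99 and miR-100 list 0.11 with 3 of 3. Each of these medians was below 0 under the larger read total. The miR-181 list had -0.40 with 1 of 5 above 1, the miR-130 and miR-301 list -0.66 with 2 of 11, and the miR-29 list -0.79 with none of 2. The miR-181 median turned to 0.13 under TMM scaling.

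Of the 65 microRNAs past 4-fold lower, 18 were in no list. The most abundant of them were miR-152, at 548 CPM in Endo against 2767 CPM in NoEndo, and its relative miR-148, at 269 CPM in Endo, 1526 CPM in NoEndo. Among those of the 18 that averaged 100 CPM or more, the smallest ratios were those of 2 microRNAs: miR-725-3p was 22.2-fold lower (46.2 CPM in Endo, 1028 CPM in NoEndo) and miR-722 was 17.9-fold lower (11.0 CPM in Endo, 198 CPM in NoEndo).

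The other stages come from separate libraries. All 13 microRNAs higher at 72 hpf were also higher in Endo at 48 hpf and at 6 dpf, and 12 of 13 at 24 hpf, the exception being miR-30c-3p. Of all microRNAs past the minimum, 37.9% were higher in Endo at 24 hpf, 29.3% at 48 hpf and 42.2% at 6 dpf. The 13 were past 4-fold higher in 9 of 13 cases at 24 hpf, 12 of 13 at 48 hpf and 9 of 13 at 6 dpf, where 6.85%, 5.02% and 8.19% of all microRNAs were. Of the 65 lower ones, those with a mean of at least 10 CPM at a stage were lower in 48 of 56 cases at 24 hpf, 57 of 58 at 48 hpf and 51 of 51 at 6 dpf. Of all microRNAs, 62.1% were lower at 24 hpf, 70.7% at 48 hpf and 57.8% at 6 dpf. The lower ones were past 4-fold in 19, 48 and 39 cases in stage order, where 12.1%, 25.5% and 24.1% of all microRNAs were. A count of 0 was not set to 3 counts at these stages. A microRNA absent from either population therefore counted as past 4-fold, whatever its level in the other. Examples at 6 dpf are miR-194b and miR-200a-3p, absent from Endo and at 33.5 and 37.8 CPM in NoEndo. The counts and percentages past 4-fold at these stages are thus upper limits. Differences between stages were not tested.

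Several groups had smaller or opposite ratios at 24 hpf. In stage order from 24 hpf to 6 dpf, the median log2 ratio of the epithelial list was -1.51, -3.65, -4.34 and -4.58. The 6 dpf value takes miR-200a-3p, absent from Endo and at 37.8 CPM in NoEndo, as the lowest member. The NoEndo replicates averaged at 48 hpf were far apart in this list. They held 72798 and 12365 CPM of miR-203b-3p, and 145734 and 49894 CPM of miR-205-5p. The Endo replicates held 3675 and 2286 CPM of miR-203b-3p, and 9205 and 6222 CPM of miR-205-5p. The median of the gut and liver list was 0.62, -2.32, -4.19 and -3.64, with 3 of its 4 members at a level to count at 24 hpf and at 48 hpf. Its 6 dpf value takes miR-194b, absent from Endo and at 33.5 CPM in NoEndo, as the lowest member. The other members stood at -2.71 (miR-122), -2.81 (miR-192) and -4.46 (miR-194a) at 6 dpf. Both 6 dpf medians would be less negative under the rule for a count of 0 used at 72 hpf. The liver microRNA miR-122 stood at 21.6 CPM in Endo against 9.34 CPM in NoEndo at 24 hpf. These levels rest on few counts, as 3 counts there equal 9.25 CPM in Endo and 4.67 CPM in NoEndo. At 6 dpf miR-122 stood at 724 CPM in Endo against 4745 CPM in NoEndo. The median of the miR-126 entries lay between 5.61 and 6.81 at all 4 stages. The level of miR-126a-3p in Endo was 10804 CPM at 24 hpf and 34478 and 64325 CPM in the 48 hpf replicates. It was 29924 CPM at 72 hpf and 12039 CPM at 6 dpf. The NoEndo libraries, leaving out the file shared by both titles, held 108 to 502 CPM. The level of miR-150 in Endo was 7751 CPM at 24 hpf, 45692 and 29968 CPM at 48 hpf, 60352 CPM at 72 hpf and 61347 CPM at 6 dpf. The same NoEndo libraries held 267 to 666 CPM of it. The file that carries both titles at 72 hpf held 13546 CPM of miR-126a-3p, 34182 CPM of miR-150, 5807 CPM of miR-205-5p and 1092 CPM of miR-203b-3p.

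**Figure D5:**
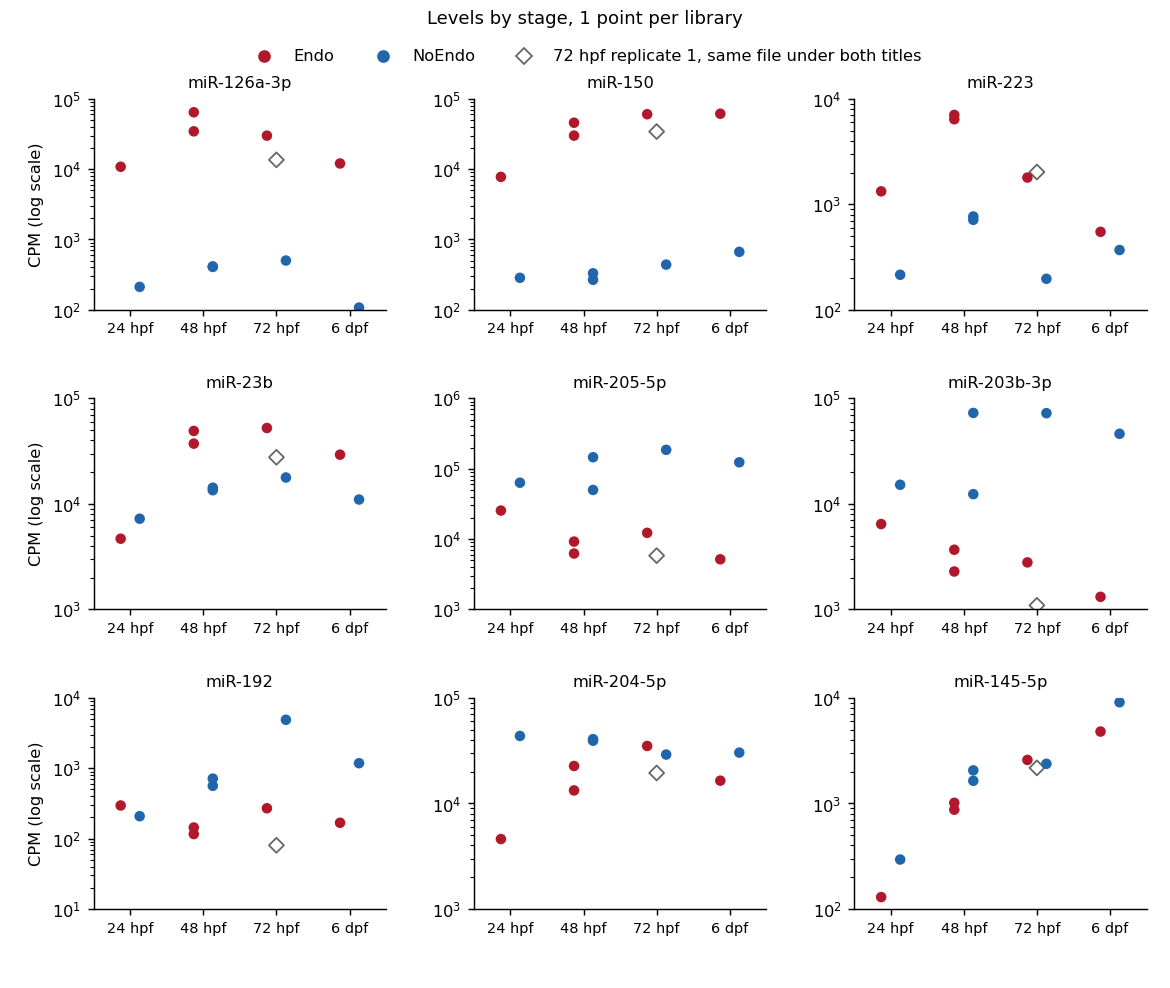
CPM (log scale) of selected microRNAs by stage, from 24 hpf to 6 dpf, 1 point per library, with Endo left of NoEndo at each stage and the file shared by both titles at 72 hpf marked apart. Leaving out that file, in miR-126a-3p the Endo libraries lie between 10804 and 64325 CPM and the NoEndo libraries between 108 and 502 CPM.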

How the data were processed

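Each deposited table gives read counts and unique read counts, in whole reads, for every genomic copy of a mature microRNA. The deposited expected counts, which the file headers call adjusted for multiple mapping, divide a read over its places. The deposited signal columns scale read counts to 2 library totals, per the file headers, and served only to recover these totals; the larger one is not defined there. STAR 2.3.0 and the build Zv9 are named in the submitters' processing notes. Trimming, annotation and the counting program were not given in the sources used here.

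Expected counts of the sense tables were summed by microRNA name over its copies, unrounded, and divided by the library's sum to give CPM. These sums were 99.9% (Endo) and 99.2% (NoEndo) of the reads on mature microRNAs. Ratios have exact conditional (Clopper-Pearson) 95% intervals, and for the 72 hpf ratios a count of 0 was set to 3 counts. In the comparisons of the other stages a count of 0 was kept, so a microRNA absent from either population counted as past 4-fold. In 20 simulated draws of Poisson counts for the 72 hpf pair, 95.84% of 250 true ratios per draw lay in their intervals. The intervals are built for such counts, so these draws check the calculation and not the spread between libraries. Reads without molecular identifiers are not independent molecules.

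Groups, stages and replicate numbers come from the titles. Named were the 15 largest and 15 smallest ratios among microRNAs averaging 100 CPM or more, the 12 most abundant microRNAs of each library, and examples of 25 lists of microRNA families. The members and lists were chosen with earlier results of these data known. Alternatives used edgeR 4.0.16 (TMM), DESeq2 1.42.0 (size factors), the larger total, whole read counts, other filters, summed arms, and the file shared by both titles. Host genes came from the RefSeq table of GRCz12tu, where 35 of 47 names matched. A host gene there is 1 whose span holds the hairpin, and strands were not compared. Coordinates are Zv9, 1-based, as deposited. Calculations used Python 3.11.15 with numpy 2.4.6, pandas 2.3.3 and scipy 1.17.1, and R 4.3.3.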

Additional observations from a re-analysis of the deposited data

Results flagged for a closer look

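Of the microRNAs compared across stages, miR-145-5p and miR-204-5p lay above a ratio of 1 at 72 hpf and below it in every pair of Endo and NoEndo libraries at the other stages. The difference between stages was not tested. At 72 hpf the log2 ratio was 0.12 for miR-145-5p and 0.27 for miR-204-5p, and both ratios were below 1 under the larger read total. In miR-145-5p, a smooth-muscle microRNA, the Endo libraries held 129.6 CPM at 24 hpf, 873 and 1015 CPM in the 48 hpf replicates, and 4805 CPM at 6 dpf. The NoEndo libraries held 294 CPM of it at 24 hpf, 1641 and 2059 CPM at 48 hpf, and 9104 CPM at 6 dpf. In miR-204-5p the Endo libraries of the other stages ran between 4600 and 22660 CPM, and the NoEndo libraries between 30343 and 43650 CPM.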

How the results depend on the processing

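No paired analysis was possible because each population has 1 library at 72 hpf and the ratios come from no test; for the same reason no library could be left out in turn. Most alternatives could not move the 13 microRNAs past 4-fold higher or the 65 past 4-fold lower across a ratio of 1. TMM scaling, DESeq2 size factors, the larger read total and the sums without the most abundant microRNAs move all ratios by 1 factor smaller than 4-fold. Both other filters leave the ratios as they were. Summed arms gave a value only for 7 of the 13 and 24 of the 65, whose names carry no arm, so summing left these unchanged. Whole read counts could turn a ratio. Under them all 13 higher ones and all 60 lower ones with a value kept their side, and 13 and 58 stayed past 4-fold. The median log2 ratio was -0.059 under TMM scaling, 0.031 under DESeq2 size factors, -1.69 under the larger read total, -0.43 with the minimum mean raised to 100 CPM, and -0.86 without the most abundant microRNA of either library. The ratio of miR-126a-3p was 85.7 under TMM scaling, 91.3 under DESeq2 size factors, 27.6 under the larger read total and 50.6 without the most abundant microRNAs. The count of lower microRNAs was 111 under the larger read total and 38 at a mean of at least 100 CPM, where fewer were counted. A 2-fold limit gave 28 higher and 105 lower.

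With the file shared by both titles in place of the Endo library, 98 were lower, the median was -1.36 and the ratio of miR-126a-3p 27.005; miR-10b-5p turned to a ratio of 1.15. With it in place of the NoEndo library, 29 were higher and 4 lower, the median was 0.95 and the ratio of miR-126a-3p 2.21. Of the 40 lower microRNAs with a value, that substitution left 3 below 1. It turned the others above 1, among them miR-122 2.16, miR-137-3p 14.1, miR-148 4.89, miR-152 2.06, miR-183-3p 2.40, miR-192 3.36, miR-194a 2.13, miR-200a-3p 1.54, miR-200b-3p 2.10, miR-200c-3p 2.82, miR-203a-3p 3.59, miR-203b-3p 2.55, miR-203b-5p 3.58, miR-205-5p 2.11, miR-217 2.304, miR-27e 3.23, miR-375 1.61, miR-429a 1.61, miR-429b 1.20, miR-499-5p 4.30, miR-725-3p at least 7.85 (0 counts in that file), miR-9-3p 5.84 and miR-96-5p 2.39. It turned these below 1: miR-139-3p 0.934, miR-222b 0.608, miR-223 0.886, miR-30c-3p 0.885, miR-338 0.980 and miR-7147 0.590. The shared file held 13546 CPM of miR-126a-3p and 5807 CPM of miR-205-5p. The NoEndo library it replaced held 502 and 185676 CPM of them, and the Endo library 29924 and 12250 CPM. The cause was not tested. Depth limits the Endo library most, where a microRNA under 3.01 CPM cannot be told from one at 0.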

Other observations

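The arms of a hairpin did not always share a ratio. In miR-139 the 5' arm made up 86.6% of the arm counts in Endo and 94.5% in NoEndo, and in miR-30c 95.5% in Endo and 98.4% in NoEndo. No test between samples was possible for these shares.

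Reads antisense to mature microRNAs were scarce, at 4.25 in Endo and 1.80 in NoEndo per 1000000 microRNA counts, a ratio of 2.35 with a 95% interval of 0.501 to 7.98.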
